A study of Homo sapiens with 6 samples.

Results

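The SR proteins and the heterogeneous nuclear ribonucleoproteins (hnRNPs) are the main families of RNA-binding proteins that decide which exons a cell keeps. The genes described here are those whose current symbol starts with SRSF and a number or with HNRNP and which at least 1 probe set of the array names alone. Pseudogenes and antisense or divergent transcripts were left out. The rule gave 29 genes of 19775 measured, 10 SRSF and 19 HNRNP genes, with 115 probe sets, and all 29 were kept because no filter on dim values was applied. It left out 1 probe set of the pseudogene HNRNPA3P1 and 1 of the divergent transcript HNRNPD-DT, and 14 probe sets whose annotation names several symbols. SRSF2, SRSF9 and HNRNPH2 have probe sets of that last kind and no others, and were not analysed here. The genes were not chosen by their values, but they were chosen with earlier results of these arrays known.

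SR proteins carry RNA recognition motifs and a tail rich in arginine and serine dipeptides. They bind exonic enhancers and recruit the spliceosome, and kinases of the SRPK and CLK families phosphorylate the tail. The hnRNPs coat nascent RNA through RNA recognition motifs or KH domains and often silence the exons that SR proteins favour. Many genes of both families limit their own level through cassette exons with premature stop codons, whose transcripts are removed by nonsense-mediated decay. SRSF1 is a known proto-oncogene, and both families are studied in liver cancer.

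The samples were SNU-449 cells, an established line from a human hepatocellular carcinoma, grown in RPMI-1640 medium with fetal bovine serum. A first group of 3 arrays is labelled as cells with an empty vector (genotype Ctrl). A second group of 3 is labelled as cells with USP48 (genotype USP48 OE), made with a lentivirus in the presence of HiTransG A and then selected with puromycin as stable expressers. USP48 is a ubiquitin-specific protease, and the study asks which transcripts differ between the groups. The labels do not say what promoter drives USP48, whether the cells are 1 clone or a pool, or whether control cells passed the same selection. They also do not say that the arrays of a group are of separate cultures, and every p-value here speaks of the spread among these arrays, which may be technical.

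The labels could not be checked by the level of USP48. None of its 5 probe sets was called higher, and 220079_s_at fell from 7.88 ± 0.05 to 7.06 ± 0.12 (SD, n = 3 each) and 220078_at from 4.97 ± 0.07 to 4.34 ± 0.13. It is not known whether the transferred sequence is one these probe sets can detect, and directions below belong to arrays labelled USP48. Of the markers looked at, the epithelial genes KRT18, KRT8, EPCAM and CDH1 averaged 11.79, 10.88, 6.69 and 2.95 on the log2 scale in the empty vector arrays, while 4 of 6 hepatocyte genes, albumin among them at 2.07, and 5 of 5 leukocyte genes lay below the median of all genes (4.92). The mean of the hepatocyte genes ran from 3.77 to 4.02 in the empty vector arrays and from 3.97 to 4.02 in the USP48-labelled arrays, and that of the leukocyte genes from 2.98 to 3.05 and from 3.09 to 3.22. EPCAM (−0.42) and CDH1 (−0.38) were called lower, as were VIM (−0.42) and CDH2 (−0.65) of the mesenchymal genes, CDH5 (−0.42) of the endothelial and DCN (−1.14) of the fibroblast genes. FN1 (1.48), the other mesenchymal gene, and CD2 (0.29), a leukocyte gene, were called higher, no hepatocyte gene was called, and the part of other cell types in the results was not tested. Hybridization controls (18 probe sets) had a mean of 9.79 ± 0.04 in the first group and 10.09 ± 0.10 in the second (SD, n = 3 each), where a two-sided exact permutation test gave p = 0.1. With 3 arrays a group that test can give no smaller p. The 5′ minus 3′ difference of GAPDH, which falls as RNA degrades, was −0.38 ± 0.06 and −0.76 ± 0.48 (exact permutation p = 0.1), with USP48 replicate 3 at −1.31 and the other USP48-labelled arrays at −0.51 and −0.45. That of ACTB was −3.46 ± 0.22 and −3.82 ± 0.35 (exact permutation p = 0.2). Its USP48-labelled arrays stood at −3.88, −3.44 and −4.14 and overlapped the empty vector arrays, which ran from −3.70 to −3.26.

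The promoters of 4 genes are printed first, as the 250 bases before the RefSeq start on the gene's own strand in GRCh38.p14, from the genes with the lowest differences, SRSF1 and SRSF6, and from the brightest genes that were not called, HNRNPK and HNRNPA2B1. They lie at chr17:58007247-58007496 on the minus strand, chr20:43457646-43457895 on the plus strand, chr9:83980216-83980465 on the minus strand and chr7:26200747-26200996 on the minus strand. Capitals mark matches, on either strand, to 7 motifs: CACGTG (bound by MYC and MAX), CCAAT (bound by the NF-Y complex), GGGCGG (a GC box), CCGGAA (the core of an ETS factor site), TATAAA (the TATA box), the core of the interferon-stimulated response element and the palindromic CGCG element.
SRSF1: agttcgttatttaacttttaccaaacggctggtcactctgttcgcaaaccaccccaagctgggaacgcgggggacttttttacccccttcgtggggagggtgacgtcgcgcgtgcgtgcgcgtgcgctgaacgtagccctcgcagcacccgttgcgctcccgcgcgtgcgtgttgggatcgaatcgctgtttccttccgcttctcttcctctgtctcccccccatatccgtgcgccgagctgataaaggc
SRSF6: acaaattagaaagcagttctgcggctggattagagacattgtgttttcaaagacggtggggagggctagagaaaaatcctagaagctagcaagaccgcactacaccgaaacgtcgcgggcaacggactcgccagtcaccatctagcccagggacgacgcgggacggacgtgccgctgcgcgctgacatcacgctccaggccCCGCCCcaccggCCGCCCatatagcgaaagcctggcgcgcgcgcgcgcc
HNRNPK: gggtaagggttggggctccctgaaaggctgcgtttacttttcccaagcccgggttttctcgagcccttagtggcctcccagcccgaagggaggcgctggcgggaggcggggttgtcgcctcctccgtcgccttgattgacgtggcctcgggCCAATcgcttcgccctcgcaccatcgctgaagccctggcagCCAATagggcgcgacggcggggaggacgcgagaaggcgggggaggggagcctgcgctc
HNRNPA2B1: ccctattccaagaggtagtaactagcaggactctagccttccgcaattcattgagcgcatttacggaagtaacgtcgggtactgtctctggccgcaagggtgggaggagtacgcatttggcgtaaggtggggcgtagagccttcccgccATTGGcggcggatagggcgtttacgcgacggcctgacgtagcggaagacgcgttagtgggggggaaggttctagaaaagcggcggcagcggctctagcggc
The SRSF1 window held none of these motifs, the SRSF6 window 2 GC boxes on the opposite strand, the HNRNPK window 2 CCAAT motifs and the HNRNPA2B1 window 1 CCAAT motif on the opposite strand, and no match overlapped another. Promoters of 28 of the 29 genes were in the table, all but HNRNPA1. GGGCGG was in 9 of the 15 windows of genes called lower and in 6 of 13 of the others, against 42.6% of all 35114 windows of that length. CCAAT was in 7 of 15 and 8 of 13, against 32% of all windows, and the interferon element in 1 of 15 and 1 of 13, against 3.02%. CACGTG was in 2 of 15 and 2 of 13 (6.35% of all), CCGGAA in 3 and 2 (14.5%), TATAAA in 4 and 1 (10.7%) and the CGCG element in 1 and 0 (0.373%). The median share of G and C was 64% in the windows of the genes called lower, 68% in those of the others and 58% in all windows. These matches describe the letters in the windows and are no evidence of binding.

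In the arrays labelled USP48, 15 of the 29 SR and hnRNP genes were lower and 0 were higher, each gene taken at its brightest probe set (limma, Benjamini-Hochberg adjusted p under 0.05 over all 19775 genes). Of all genes, 14.1% were called lower and 15.7% higher, 29.8% in either direction. The median log2 difference was −0.34 over the 29 genes and 0.05 over all genes, and 25 of the 29 differences were below 0. All 3 USP48-labelled arrays lay below all 3 empty vector arrays for 17 of the 29 genes and above them for 0, where 19.1% of all genes lay below and 23.8% above, 42.9% in all. Among brighter genes, with a mean over 7 on the log2 scale, 13 of 26 SR and hnRNP genes were called lower, against 24.6% of the 5052 genes with such a mean called lower and 48.3% called in either direction. That limit on the mean was chosen after the values were seen. A fall of at least 1.5-fold was called in 5 of the 29 genes, against 5.89% of all genes, a smaller share. In these bulk samples a lower share of transcript in all cells and a loss in some of them cannot be told apart.

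**Figure D1:**
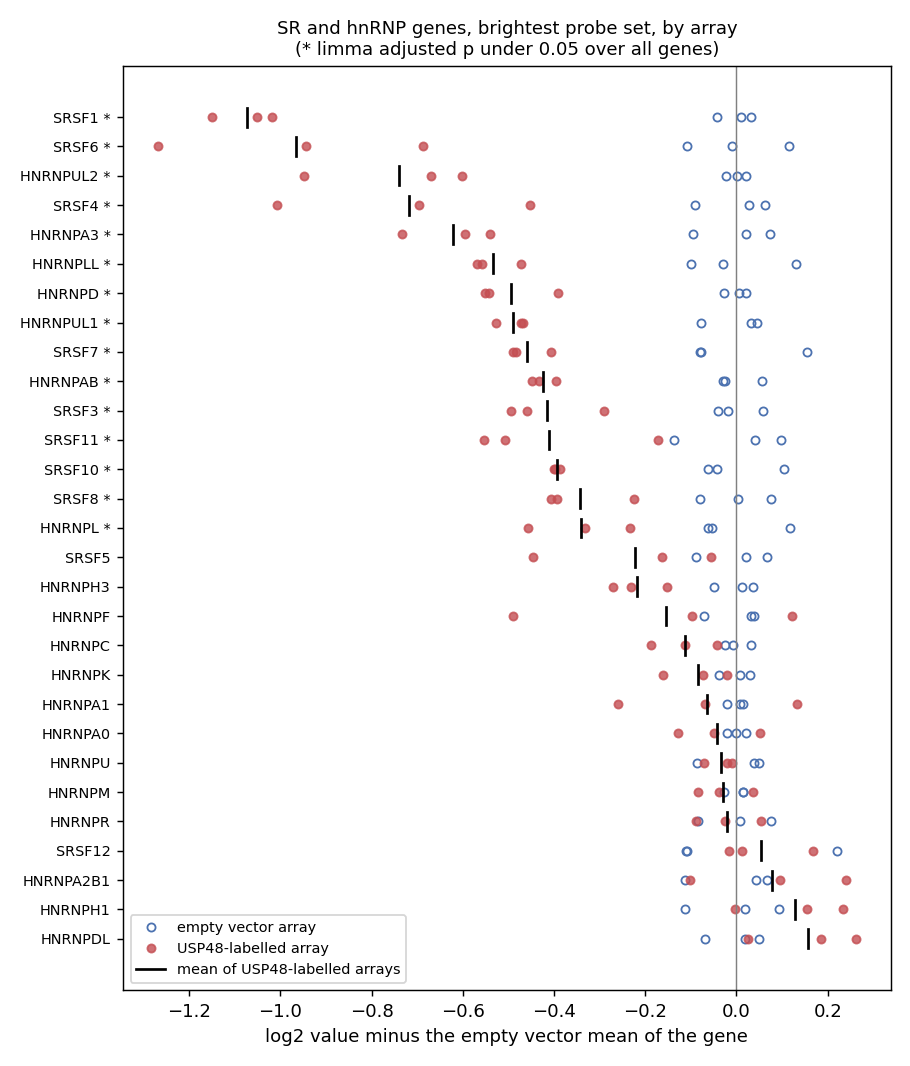
Log2 value of each SR and hnRNP gene in each of the 6 arrays (horizontal axis, minus the gene's empty vector mean), for the brightest probe set. Open points are the 3 empty vector arrays, filled points the 3 USP48-labelled arrays and bars their mean; the 15 genes with a star were called lower, from SRSF1 at −1.07 to HNRNPL at −0.34, and the 4 at the bottom have means above 0.

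**Figure D2:**
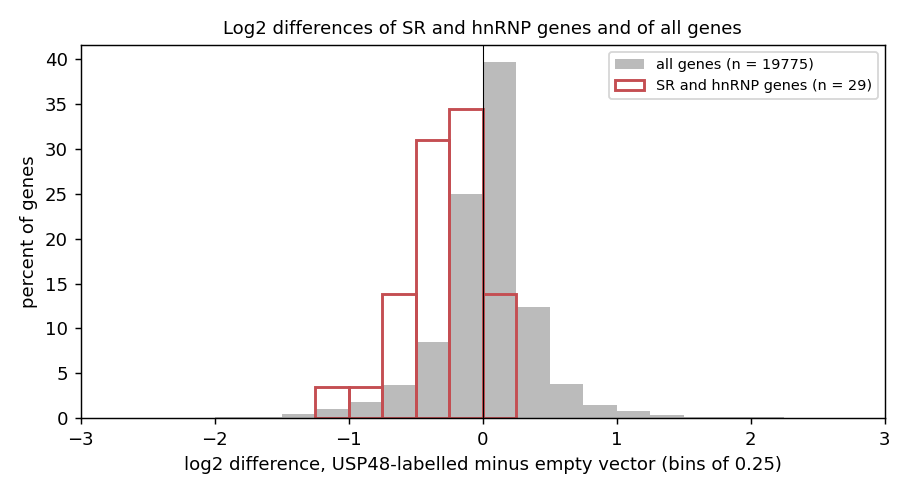
Percent of genes (vertical axis) in each 0.25-wide bin of the log2 difference, USP48-labelled minus empty vector (horizontal axis). Grey bars are all 19775 genes, with a median of 0.05, and red outlines the 29 SR and hnRNP genes, with a median of −0.34.

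Of 10 SRSF genes 8 were called lower (median −0.41) and of 19 HNRNP genes 7 were (median −0.11), against 14.1% of all genes. Differences were below 0 in 9 of the SRSF and 16 of the HNRNP genes. The difference between the families was not tested. By role, 5 of 6 classical SR genes were called lower (median −0.59) and 3 of 4 further SRSF genes (−0.37). So were 3 of 7 genes of the hnRNP A, B and D group (−0.07) and 2 of 3 of the hnRNP K and L group (−0.34). In the hnRNP U group 2 of 3 were called lower (−0.49), and 0 of the 6 genes of the hnRNP C, F, H, M and R groups.

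SRSF1, the best studied SR protein, which binds purine-rich exonic enhancers, had the lowest difference of the 29 genes. Its values were 10.51, 10.46 and 10.54 in the empty vector arrays and 9.45, 9.35 and 9.48 in the USP48-labelled arrays. The groups lay far apart, with little spread inside either. It fell from 10.50 ± 0.04 to 9.43 ± 0.07 (SD, n = 3 each), 2.1-fold, with a change of −1.07 in log2 (SE 0.08, adjusted p by limma = 6.8e-06). SRSF6, another SR protein with a pair of RNA recognition motifs, stood at 8.19, 7.96 and 8.06 in the empty vector arrays and 6.80, 7.13 and 7.38 in the USP48-labelled arrays. USP48 replicate 1 was lowest, and the groups did not overlap. It fell 1.95-fold, with a change of −0.97 in log2 (SE 0.14, adjusted p by limma = 0.000367).

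SRSF4, the longest classical SR protein, stood at 8.73, 8.70 and 8.58 in the empty vector arrays and 7.98, 8.22 and 7.66 in the USP48-labelled arrays. It fell 1.65-fold, with a change of −0.72 in log2 (SE 0.13, adjusted p by limma = 0.00178). USP48 replicate 3, the array with the lowest GAPDH 5′ minus 3′ difference, was lowest here. All 3 USP48-labelled arrays lay below every empty vector array, in SRSF4 and in that GAPDH difference, whose part in the result was not tested. In the ACTB difference the groups overlapped. SRSF7, which has a zinc knuckle and helps export mature RNA, stood at 10.38, 10.15 and 10.15 in the empty vector arrays and 9.73, 9.82 and 9.74 in the USP48-labelled arrays. It fell by less, with a change of −0.46 in log2 (SE 0.09, adjusted p by limma = 0.00352). SRSF3, the smallest SR protein, stood at 10.24, 10.17 and 10.15 in the empty vector arrays and 9.69, 9.90 and 9.73 in the USP48-labelled arrays, with a change of −0.41 in log2 (SE 0.09, adjusted p by limma = 0.00494). In both genes every USP48-labelled array lay below every empty vector array. SRSF5, first found in regenerating liver, did not pass the test (log2 difference −0.22, limma adjusted p = 0.162), and USP48 replicate 2 at 8.93 lay above the lowest empty vector array at 8.90.

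Of the further SRSF genes, SRSF10, which represses splicing once it is dephosphorylated in heat shock, stood at 8.79, 8.62 and 8.64 in the empty vector arrays and 8.30, 8.29 and 8.29 in the USP48-labelled arrays. The 3 USP48-labelled values were almost equal, and the gene fell, with a change of −0.39 in log2 (SE 0.08, adjusted p by limma = 0.00486). SRSF8, an expressed copy derived from SRSF2, stood at 9.11, 9.19 and 9.26 in the empty vector arrays and 8.78, 8.79 and 8.96 in the USP48-labelled arrays, and fell, with a change of −0.34 in log2 (SE 0.09, adjusted p by limma = 0.015). Whether its probes also match SRSF2 was not tested. SRSF11 stood at 8.90, 8.66 and 8.84 in the empty vector arrays and 8.63, 8.29 and 8.25 in the USP48-labelled arrays, with a change of −0.41 in log2 (SE 0.12, adjusted p by limma = 0.0209). The groups of SRSF11 nearly touched, at 8.66 and 8.63. The call of SRSF8 was lost when empty vector replicate 3 (adjusted p = 0.0578) or USP48 replicate 1 (0.0565) was left out. The call of SRSF11 was lost when empty vector replicate 1 (0.0838) or 3 (0.0693) or USP48 replicate 2 (0.0725) or 3 (0.0684) was. SRSF12 was dim in both groups, at 2.85 ± 0.19 and 2.90 ± 0.10, below the median of all genes, and did not pass (0.05, adjusted p = 0.753).

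HNRNPU is the scaffold attachment factor that binds chromatin-associated RNA, and HNRNPUL1 and HNRNPUL2 are its relatives. HNRNPUL2, known from DNA end resection, stood at 6.47, 6.42 and 6.45 in the empty vector arrays and 5.50, 5.78 and 5.85 in the USP48-labelled arrays. It fell 1.67-fold, with a change of −0.74 in log2 (SE 0.10, adjusted p by limma = 0.00032). Its other probe set, 222264_at, was at −0.02 with overlapping groups and did not pass (limma adjusted p = 0.928 over all probe sets). HNRNPUL1 stood at 7.93, 7.82 and 7.94 in the empty vector arrays and 7.43, 7.37 and 7.42 in the USP48-labelled arrays, with a change of −0.49 in log2 (SE 0.08, adjusted p by limma = 0.00111). Neither pair of groups overlapped at the brightest probe set. HNRNPU itself ran from 10.59 to 10.73 in the empty vector arrays and from 10.61 to 10.67 in the others, and did not pass at its brightest probe set (−0.03, adjusted p = 0.799).

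In the A, B and D group, HNRNPA3, a relative of HNRNPA1, stood at 5.79, 5.96 and 5.91 in the empty vector arrays and 5.15, 5.35 and 5.29 in the USP48-labelled arrays. It fell 1.54-fold, with a change of −0.62 in log2 (SE 0.09, adjusted p by limma = 0.000459). HNRNPD, also known as AUF1, binds AU-rich elements and targets messages for decay. It stood at 9.94, 9.97 and 9.99 in the empty vector arrays and 9.41, 9.57 and 9.42 in the USP48-labelled arrays, with a change of −0.50 in log2 (SE 0.08, adjusted p by limma = 0.00125). HNRNPAB, a close relative of HNRNPD, stood at 11.30, 11.21 and 11.22 in the empty vector arrays and 10.81, 10.80 and 10.85 in the USP48-labelled arrays, with a change of −0.42 in log2 (SE 0.08, adjusted p by limma = 0.00231). For each of these genes the arrays of the groups were apart. HNRNPA1, HNRNPA0, HNRNPA2B1 and HNRNPDL did not pass at the brightest probe set, with log2 differences of −0.07, −0.04, 0.08 and 0.16 and adjusted p of 0.687, 0.756, 0.63 and 0.231.

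HNRNPLL, which represses exons of the leukocyte phosphatase gene PTPRC, stood at 9.12, 8.96 and 8.89 in the empty vector arrays and 8.42, 8.43 and 8.52 in the USP48-labelled arrays. It fell, with a change of −0.53 in log2 (SE 0.09, adjusted p by limma = 0.0012). HNRNPL, its relative, binds CA repeats and fell by 0.34 on the log2 scale (SE 0.09, limma adjusted p = 0.0195), from values of 9.59 to 9.77 to values of 9.19 to 9.42. Its call depended on single arrays, with an adjusted p of 0.0864 when empty vector replicate 2 was left out, 0.0503 for USP48 replicate 1 and 0.0583 for USP48 replicate 3. HNRNPK, which binds C-rich RNA through KH domains, was the brightest gene that did not pass. It stood at 11.26, 11.30 and 11.32 in the empty vector arrays and 11.13, 11.27 and 11.22 in the USP48-labelled arrays, which differ by −0.08 in log2 (SE 0.08, adjusted p by limma = 0.486). HNRNPC, which binds uridine tracts, HNRNPF, HNRNPH1 and HNRNPH3, which bind runs of G, and HNRNPM and HNRNPR also did not pass, with differences between −0.22 for HNRNPH3 (adjusted p = 0.0691) and 0.13 for HNRNPH1 (adjusted p = 0.361). The groups of HNRNPC and HNRNPH3 did not overlap although neither passed. With 3 arrays a group these tests do not show that levels were alike.

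The probe sets of 1 gene did not always tell the same story. Tested one by one over all 41091 probe sets that name 1 symbol, 53 of the 115 SR and hnRNP probe sets were lower and 2 higher, against 14.7% and 12.6% of all such probe sets (27.3% in either direction). Of the 29 genes, 24 had at least 1 probe set called lower, and 9 of the 14 genes not called at the brightest probe set had another that was. Genes with more probe sets have more chances of this. At least 1 probe set was lower in 20.1% of all genes, in 30.6% of those with 2 or more probe sets and in 40% of those with 3 or more, against 23 of 27 and 18 of 21 such SR and hnRNP genes. Of genes not called at the brightest probe set, 14.6% of those with 2 or more probe sets had another called lower, against 9 of 13 SR and hnRNP genes. These 9 are HNRNPA0, HNRNPA1, HNRNPA2B1, HNRNPC, HNRNPDL, HNRNPH3, HNRNPK, HNRNPM and HNRNPU. The 5 genes with no called probe set are SRSF5, SRSF12, HNRNPF, HNRNPH1 and HNRNPR. Of the 15 genes called lower, 6 had every probe set called lower (HNRNPA3, HNRNPAB, HNRNPL, HNRNPUL1, SRSF8 and SRSF10), of which HNRNPAB has a single probe set, and 9 had one that was not. Probe set 202072_at of HNRNPL lost its call without any 1 array other than USP48 replicate 2 (limma adjusted p from 0.0796 to 0.157). That of 213152_s_at of SRSF8 was lost without empty vector replicate 2 (0.0575).

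Affymetrix marks with _s_at and _x_at the probe sets that can match several transcripts or share probes with other sequences. Of 59 such SR and hnRNP probe sets 20 were lower (33.9%; median difference −0.17), and of the 56 others 33 were (58.9%; median −0.41). Over all probe sets the shares were 15.4% and 14.4%. The _s_at and _x_at probe sets were the brighter ones, with a median mean of 8.53 against 4.13 on the log2 scale. Probe positions were not analysed here, so whether a probe set sees an exon, an intron or a long 3′ end was not tested. Both families have processed pseudogenes, and signal from them cannot be told apart in these values.

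**Figure D3:**
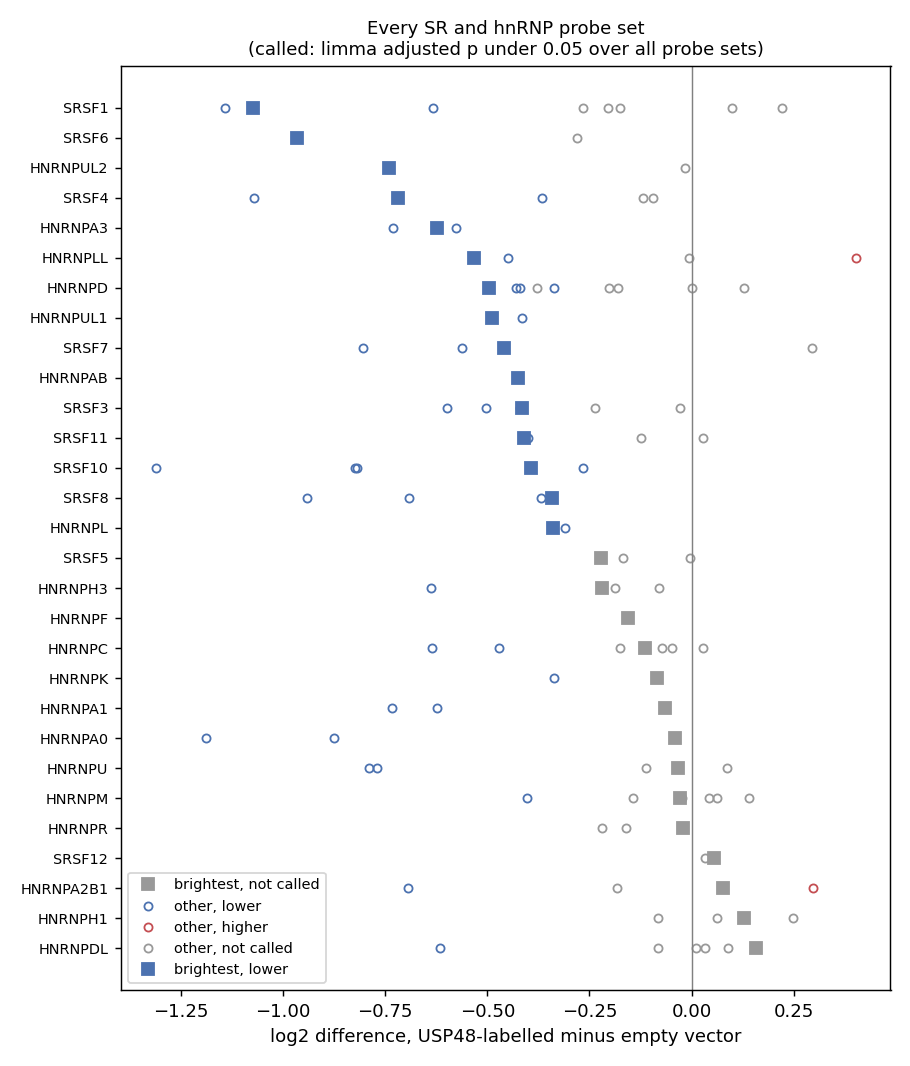
Log2 difference, USP48-labelled minus empty vector (horizontal axis), of all 115 probe sets, by gene. Squares are the brightest probe set of a gene and open points the others; blue was called lower (53), red higher (2) and grey not called. Genes such as HNRNPA0 have a brightest probe set near 0 and others far below it.

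HNRNPA0, an intronless gene whose product binds AU-rich RNA, had probe sets far below a brightest one that was not called, and was picked after its values were seen. Its brightest probe set, 201055_s_at, stood at 8.33, 8.38 and 8.35 in the empty vector arrays and 8.30, 8.41 and 8.23 in the USP48-labelled arrays, with overlapping groups (log2 difference −0.04). Probe set 201054_at stood at 7.76, 7.81 and 7.80 in the empty vector arrays and 6.64, 6.33 and 6.84 in the USP48-labelled arrays. It fell, with a change of −1.19 in log2 (SE 0.12, adjusted p by limma = 5.34e-05) over all probe sets, and 229083_at fell by 0.87 (adjusted p = 5.35e-05). HNRNPA1, which counters SRSF1 at many 5′ splice sites, was at −0.07 by 214280_x_at but fell by 0.73 and 0.62 by the dimmer 222040_at and 221919_at (adjusted p = 0.000344 and 0.00656). HNRNPU fell by 0.79 and 0.77 by 225805_at and 235603_at (0.00022 and 0.00349), while 200594_x_at and 200593_s_at were at −0.03 and 0.09. HNRNPC fell by 0.64 and 0.47 by 227110_at and 235500_at (0.00961 and 0.00883), while its 4 brightest probe sets lay between −0.18 and −0.05. HNRNPDL, HNRNPH3, HNRNPM and HNRNPK each had 1 probe set called lower, 209068_at at −0.62, 208990_s_at at −0.64, 214918_at at −0.40 and 200097_s_at at −0.34. The last lost its call without empty vector replicate 1 (adjusted p = 0.0811) or 3 (0.0683) or USP48 replicate 2 (0.0641).

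Within SRSF1, 211784_s_at was joined by 208863_s_at, which stood at 8.12, 8.07 and 7.99 in the empty vector arrays and 7.03, 6.88 and 6.84 in the USP48-labelled arrays, with a change of −1.14 in log2 (SE 0.09, adjusted p by limma = 1.14e-05). Probe set 227164_at fell by 0.63 (adjusted p = 0.00126). The other 5 did not pass and lay between −0.27 by 229246_at and 0.22 by 239384_at (adjusted p = 0.0865 and 0.232). SRSF10 fell by all of its 5 probe sets, from −0.27 by 213594_x_at to −1.31 by 225348_at, which was dim, at 3.52 ± 0.28 and 2.21 ± 0.22 (SD, n = 3 each). The call of 213594_x_at was lost without any 1 array (adjusted p from 0.062 to 0.149), while those of the other 4 held. SRSF8 fell by 0.94 by 228760_at and 0.69 by 238929_at, more than by its brightest probe set. SRSF4 fell by 1.07 by 242837_at, at 4.27 ± 0.11 and 3.20 ± 0.07, and SRSF7 by 0.80 by 201129_at, while 211439_at of SRSF7 was at 0.29 and did not pass (adjusted p = 0.143). SRSF3 fell by 4 of its 6 probe sets, of which 232392_at lost its call when any 1 array but USP48 replicate 3 was left out (adjusted p from 0.0735 to 0.145), and 202899_s_at at −0.24 did not pass (adjusted p = 0.108). SRSF6 was at −0.28 by its second probe set, which did not pass (adjusted p = 0.0719).

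Probe sets of 2 genes were called in opposite directions. HNRNPA2B1, which binds a short RNA motif that sorts microRNAs and is a reader of methylated adenosine in some reports, had its brightest probe set at 11.08, 10.92 and 11.10 in the empty vector arrays and 11.27, 10.93 and 11.13 in the USP48-labelled arrays, with overlapping groups. Probe set 225932_s_at stood at 9.86, 9.87 and 9.93 in the empty vector arrays and 10.22, 10.07 and 10.25 in the USP48-labelled arrays. It rose, with a change of 0.30 in log2 (SE 0.09, adjusted p by limma = 0.0332). Probe set 225107_at stood at 6.85, 6.71 and 7.11 in the empty vector arrays and 6.22, 6.13 and 6.22 in the USP48-labelled arrays and fell, with a change of −0.69 in log2 (SE 0.11, adjusted p by limma = 0.000922). In HNRNPLL, 1554453_at stood at 5.50, 5.18 and 5.24 in the empty vector arrays and 5.70, 5.86 and 5.56 in the USP48-labelled arrays. It rose, with a change of 0.40 in log2 (SE 0.12, adjusted p by limma = 0.0247), against the fall of 225386_s_at and of 236104_at (−0.45, lost at an adjusted p of 0.0533 when empty vector replicate 1 was left out). Both rises were small, and their calls were lost when single arrays were left out. The call of 225932_s_at was lost without any 1 array other than USP48 replicate 2 (adjusted p from 0.0583 to 0.0995). That of 1554453_at was lost without empty vector replicate 2 (0.104) or 3 (0.0869) or USP48 replicate 1 (0.0628) or 2 (0.0889). In those fits the differences stayed between 0.26 and 0.32 for 225932_s_at and between 0.33 and 0.40 for 1554453_at. After scaling on the hybridization controls the 2 probe sets were at 0.00 and 0.11 and neither passed (adjusted p = 0.981 and 0.533).

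**Figure D4:**
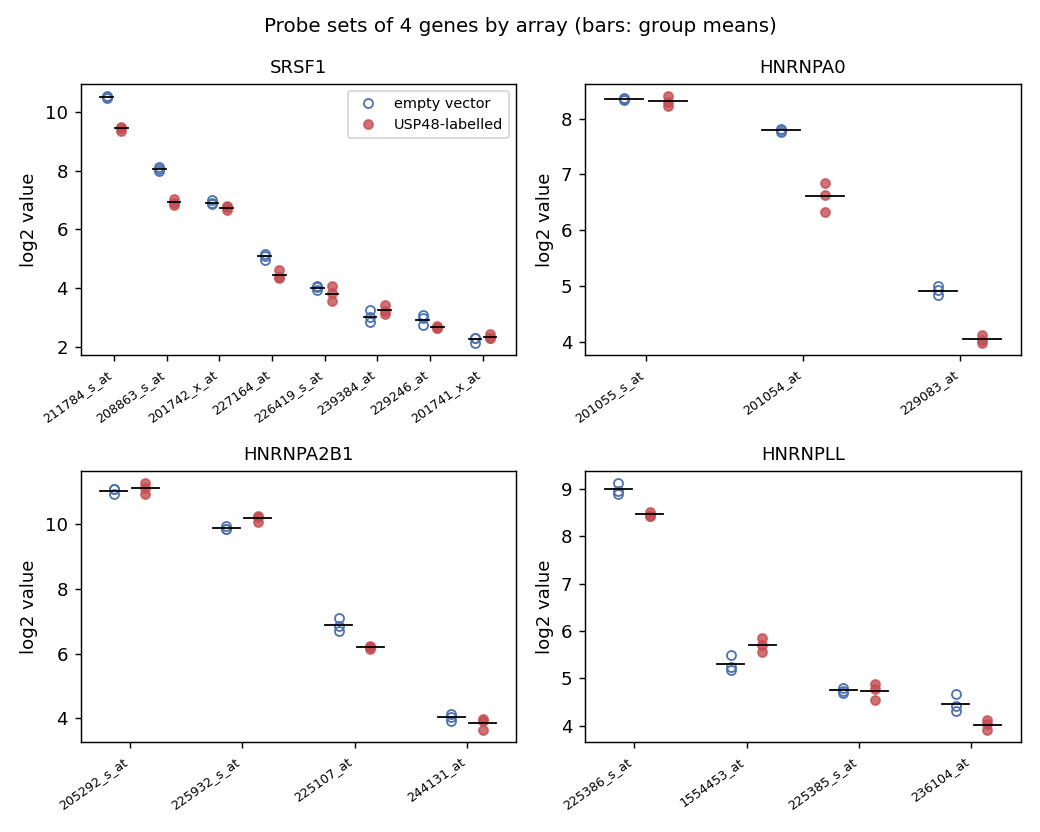
Log2 values (vertical axis) of every probe set of SRSF1, HNRNPA0, HNRNPA2B1 and HNRNPLL in each array, ordered by brightness (horizontal axis). Open points are empty vector arrays, filled points USP48-labelled arrays and bars group means; HNRNPA0 shows no gap at 201055_s_at (−0.04) and a wide one at 201054_at (−1.19).

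How a gene's probe sets are combined therefore changed which genes passed. When all probe sets of a gene were averaged, 19 of the 29 genes were lower and 0 higher (13.6% of all genes lower). HNRNPA0 (−0.70), HNRNPA1 (−0.47), HNRNPU (−0.32), HNRNPC (−0.21), HNRNPK (−0.21) and HNRNPH3 (−0.28) then passed, while HNRNPLL (−0.15, adjusted p = 0.21) and SRSF11 (−0.23, adjusted p = 0.0668) did not. Without _s_at and _x_at probe sets 23 genes were left, of which 16 were lower and 1, HNRNPLL, was higher (14% of all genes lower), and the median was −0.62. HNRNPD did not pass there (−0.20, adjusted p = 0.261). HNRNPH3 also passed once the prior was made robust with an intensity trend (adjusted p = 0.0355) and without the dimmest 33.3% of genes (0.0385).

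The scaling of the arrays set how many genes counted as lower. Scaling on the hybridization controls lowers every difference by 0.29, so that the median of all genes was −0.24 and that of the 29 genes −0.63, a gap between these medians of the same size as in the deposited values. There 25 of the 29 genes were lower and 0 higher, against 37.9% of all genes lower and 4.84% higher, and the 4 genes with differences above 0 turned negative without passing. Leaving out USP48 replicate 3, whose GAPDH 5′ minus 3′ difference stood apart, left 13 of 29 genes lower and a median of −0.28, with 13.6% of all genes lower. Leaving out any other 1 array left 13 or 14 lower, with medians from −0.34 to −0.28, against 11% to 12.9% of all genes. No array turned the direction of a called gene.

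Other genes of the splicing machinery moved in part. These lists were drawn up with earlier results of these arrays known, and their counts stand beside 14.1% of all genes called lower and 15.7% higher. Of 28 further proteins with arginine and serine rich domains 10 were lower and 2 higher (median −0.23). TRA2B, an SR-like activator, was at −1.10, the SR matrix proteins SRRM1 and SRRM2 at −0.99 and −0.84 and SREK1 at −0.92 (adjusted p = 6.8e-06, 4.8e-05, 7.98e-05 and 4.36e-05), and dimmer probe sets of TRA2B and SREK1 were at 0.08 and 0.39, the latter called higher. SRRM2 was at −0.12 (adjusted p = 0.394) without _s_at and _x_at probe sets. Of 17 hnRNPs with other symbols and related RNA-binding proteins, such as ELAVL1 and KHSRP, 7 were lower and 0 higher (median −0.23). PTBP3, of the polypyrimidine tract binding family, was at −1.34, ELAVL1, which stabilises AU-rich messages, at −1.20, the cold-inducible CIRBP at −1.13 and PCBP2, which binds C-rich RNA, at −0.54 (adjusted p = 6.81e-06, 5.73e-06, 0.000765 and 0.00126). PTBP3 was at −0.09 (adjusted p = 0.414) with the mean of its probe sets, since the other 4 lay between 0.16 and 0.27, with 1 of them called higher. In both lists the share called lower was above the 14.1% of all genes, which was not tested.

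Of 37 core subunits of the spliceosome 6 were lower and 5 higher (median −0.02), shares near those of all genes (14.1% and 15.7%). Nearly all of these subunits had a mean over 7, and of all genes with such a mean 24.6% were called lower and 48.3% in either direction. The list lay below both of these last shares, which was not tested. The helicase DDX23 was at −0.57, SF3B3 at −0.56, PRPF8, at the heart of the catalytic centre, at −0.52 and SNRNP40 at −0.46 (adjusted p = 0.00367, 0.00078, 0.00356 and 0.0302). The call of SNRNP40 was lost when empty vector replicate 1 (adjusted p = 0.109) or 2 (0.0909) or USP48 replicate 1 (0.0846) or 3 (0.0909) was left out, and the list held 7 called genes without empty vector replicate 2 or USP48 replicate 1. Of 10 genes, made up of kinases of SR proteins, the import receptor TNPO3 and the cyclophilin PPIG, 3 were lower and 1 higher (median −0.06). CLK1, which phosphorylates SR proteins in the nucleus, was at 0.46 (adjusted p = 0.00581; 0.16, adjusted p = 0.331 after scaling on the hybridization controls). TNPO3, their import receptor, was at −0.45, the cyclophilin PPIG at −0.33 and DYRK1A at −0.33 (adjusted p = 0.0246, 0.031 and 0.0169). The other probe sets of TNPO3 were also called lower, at −0.77 and −0.47 (limma adjusted p = 0.000298 and 0.00531 over all probe sets). At its brightest probe set TNPO3 lost its call when any 1 array other than USP48 replicate 3 was left out (adjusted p from 0.0665 to 0.085). For PPIG the arrays were empty vector replicates 1 (0.119) and 2 (0.075) and USP48 replicate 2 (0.102). For DYRK1A they were empty vector replicates 1 (0.0612) and 3 (0.0505) and USP48 replicate 1 (0.066), and the mean of its probe sets was at −0.10 (0.405). Leaving out empty vector replicate 1 left 1 called gene on the list, and leaving out empty vector replicate 2, empty vector replicate 3 or USP48 replicate 1 left 2.

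Of 30 further splicing regulators, not all of them tissue-specific, 8 were lower and 4 higher (median 0.00), against 14.1% and 15.7% of all genes. The spliceosome protein RBM22 was among those called higher (0.35, limma adjusted p = 0.00726). MBNL3 was at −2.42, RBM4 at −1.19, MBNL1 at −0.88 and RBM47 at −0.60 (adjusted p = 4.32e-06, 3.58e-05, 0.000848 and 0.00227). The other probe sets of MBNL3 were at −0.30 and −0.06, and dimmer probe sets of MBNL1 and RBM47 were called higher, both at 0.33. With the mean of their probe sets MBNL1 was at −0.19 (adjusted p = 0.154) and RBM47 at −0.05 (0.673), and the list held 7 called genes. Of 9 factors of nonsense-mediated decay, which removes the transcripts with premature stops that SR genes make, 1 was lower and 2 were higher (median −0.01), too few to set against the 14.1% and 15.7% of all genes. SMG5 was at 0.68 and the exon junction protein MAGOHB at 0.65 (adjusted p = 0.000435 and 0.000453), with a dim MAGOHB probe set at −0.28, and averaged over its probe sets MAGOHB was at 0.19 and not called (adjusted p = 0.0819). UPF2 was at −0.27 (adjusted p = 0.0388) and did not pass without any 1 array other than USP48 replicate 3 (adjusted p from 0.0779 to 0.127) or after quantile normalization (adjusted p = 0.095).

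**Figure D5:**
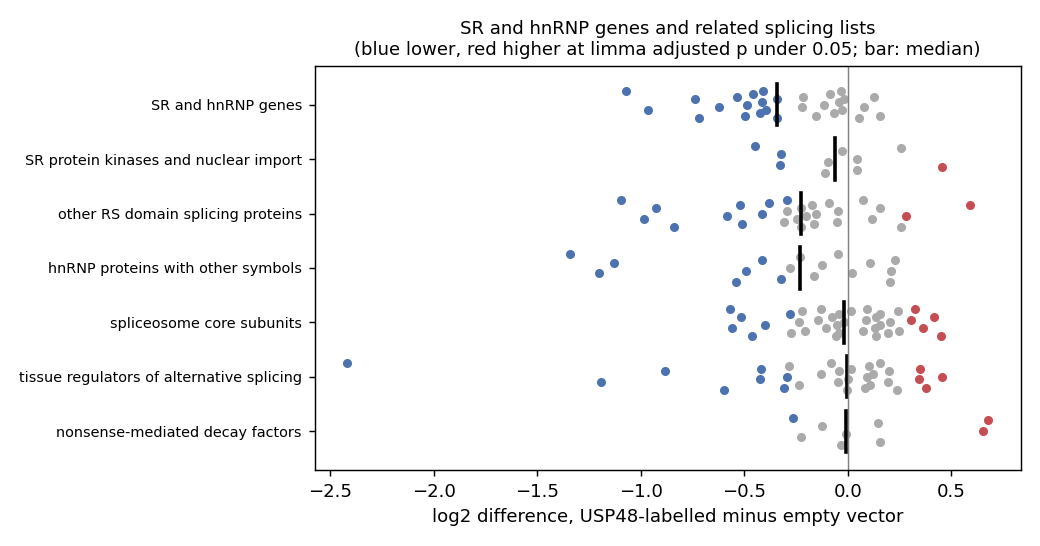
Log2 difference, USP48-labelled minus empty vector (horizontal axis), of each measured gene of the SR and hnRNP families and of 6 related lists, at the brightest probe set. Blue points were called lower, red higher and grey not called; bars are medians, −0.34 for the 29 SR and hnRNP genes and −0.02 for the 37 spliceosome core subunits.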

How the data were processed

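Expression was measured on 6 Affymetrix arrays, 3 per group, and grouped by the array titles. The authors deposited log2 values, 1 per probe set and array, and the submitters' processing notes name RMA. The version used was not given in the sources used here. Deposited log2 values spanned 0.19 to 13.2, lower at the bottom than RMA usually gives, which may alter what dim values mean, and array medians from 3.75 to 3.79. RMA equalises arrays, which hides shifts in RNA content of the whole cell, and the number of arrays limits the precision. Columns left unused numbered 0.

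The table held 54675 probe sets. A symbol of their own was given to 41091, several to 1801, none to 11721, and 62 were controls. Symbols came from the platform annotation, updated by gene identifier through RefSeq GRCh38.p14 (41037 matched, 0 symbols changed). The test was limma 3.58.1 (R 4.3.3), with lmFit and then eBayes (two-sided, Benjamini-Hochberg adjusted p under 0.05 over all genes or all probe sets), with no further normalization. The test was checked on simulated data. Figures used matplotlib 3.10.9 in Python 3.11.15. The members, lists, naming rule and alternatives were chosen with earlier results of these data known. Named are USP48, every SR and hnRNP gene, of which the 14 called with the largest differences and the 2 brightest not called by array, and up to 4 called genes of each related list. Alternatives were other normalizations, priors, filters, probe set choices, thresholds, the replicate number as a block and leaving out each array. Protein sequences were not used here. The replicate numbers were not taken to pair the arrays.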

Additional observations from a re-analysis of the deposited data

How the results depend on the processing

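The count of 15 SR and hnRNP genes called lower lay between 12 and 19 under quantile normalization, median centring, an intensity trend, the dim filter, the mean of probe sets and an adjusted p under 0.01. Leaving out 1 array gave 13 to 14 genes, where 11% to 13.6% of all genes were lower, and 46 to 49 probe sets against 55. Scaling on the hybridization controls gave 25 genes, 87 probe sets, 79 related genes against 49, and a median of −0.63. There 37.9% of all genes were lower, 8452 were called in all, and the median of all genes was −0.24. A limit of 1.5-fold left 5 genes, 26 probe sets, 14 related genes and 2210 genes in all against 5897. The share of all probe sets called was not counted under these settings. An adjusted p under 0.01 left 32 related genes and 3847 in all. Without _s_at and _x_at probe sets the median was −0.62. There HNRNPA2B1 turned to −0.69, HNRNPDL to −0.62, HNRNPLL to 0.40, SRSF11 to 0.029, RBM47 to 0.068 and MAGOHB to −0.28, because another probe set then stood for the gene. Elsewhere the cause was not tested.

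With the replicate number as a block 15 SR and hnRNP genes, 54 probe sets, 45 related genes and 5824 genes in all were called, and UPF2 no longer passed (adjusted p = 0.0516). The deviations of same-numbered arrays from their group means correlated at 0.0042, 0.17 and 0.015, and those of differently numbered arrays at −0.12 to 0.11. The numbers were not taken to pair the arrays, but with 3 arrays a group these correlations cannot settle whether they do. No detection calls were used, so how far dim probe sets lie above background is not known.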
